A study of Rattus norvegicus with 8 samples.

Results

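The levels of 10 genes of glycerolipid synthesis were followed across H9C2 cells expressing different forms of PPARα. They encode the glycerol-3-phosphate acyltransferases Gpam and Agpat6, the lysophosphatidate acyltransferases Agpat1, Agpat2 and Agpat3, the lipins Lpin1, Lpin2 and Lpin3, and the diacylglycerol acyltransferases Dgat1 and Dgat2. The members were taken by name from the deposited gene table, in which Agpat6 stands for the gene now called Gpat4. All 10 were found among 32258 features, and all 10 were among the 12407 that passed the filter on low counts.

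H9C2 is a cardiomyoblast line from embryonic rat heart, and its poly(A) RNA was sequenced with strand-specific libraries. Cells had been transduced for 2 days with pDC316 constructs, and each group held 2 libraries. The S280D group received YFP-PPARα with aspartate in place of serine 280, which mimics phosphorylation, and the S280A group received YFP-PPARα with alanine there, which cannot be phosphorylated. The WT group received wild-type YFP-PPARα, and the YFP group received YFP alone. Reads of the cells' own Ppara gene and of the construct were counted together. Since the labels do not name separate cultures within a group, the p-values reflect differences between libraries that may be technical.

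Glycerolipid synthesis builds triglycerides and membrane phospholipids on a glycerol backbone. Acyltransferases add a first fatty acid to glycerol-3-phosphate and a second to lysophosphatidate. Lipins then remove the phosphate from phosphatidate to give diacylglycerol, and Dgat1 or Dgat2 adds the last fatty acid to make triglyceride. PPARα is a nuclear receptor that binds DNA with RXR, is activated by fatty acids and is known in heart for turning on genes of fatty acid uptake and oxidation.

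The libraries held 14018785 to 39526013 exon reads. Ppara stood at 17900 and 17700 CPM (exon reads relative to library size, scaled by the TMM method) in S280D, 17400 and 13700 CPM in S280A, and 12400 and 24100 CPM in WT, against 74.4 and 59.5 CPM in YFP. The cardiac genes Tnnt2 (129 to 265 CPM), Gata4 (6.01 to 10.7 CPM) and Mef2c (19.7 to 68.7 CPM) were present, while Myh6, Myh7, Tnni3 and Actc1 stayed at 1.33 CPM or below and Nkx2-5 was at 0 in 7 of 8 libraries. The 6 adipocyte markers summed to 0.211 to 0.556 CPM, with Plin1 read in all libraries, Pparg at 0 in 2, and Fabp4, the most often absent, in 7. Of the 4 hepatocyte markers Ttr was at 0 in all 8 libraries, Alb in 6, and Apoa1 had reads in all, and their sum was 2.71 to 3.1 CPM in S280D, 2.25 to 3.09 CPM in S280A and 2.8 to 3.15 CPM in WT, against 1.41 to 1.58 CPM in YFP. The 4 macrophage markers summed to at most 1.31 CPM, with Ptprc at 0 in all 8 libraries and Cd68 at up to 1.25 CPM. The 7 fibroblast markers, of which 6 had reads in all libraries and Pdgfra was at 0 in 1, summed to 34200 to 37200 CPM in S280D and 31200 to 35700 CPM in WT, against 43900 to 51200 CPM in S280A and 44900 to 50100 CPM in YFP. In bulk RNA, fewer cells of a type and less RNA per cell cannot be told apart. Mitochondrially encoded genes made up 1.66% and 1.4% of exon reads in the S280D libraries, 0.791% and 0.49% in S280A libraries, 1.37% and 1.17% in WT libraries and 0.506% and 0.604% in YFP libraries. Long genes also had relatively more reads in S280D and WT than in S280A and YFP. Over genes, which are not independent replicates, relative expression and exon length had a Spearman's rho of 0.238 and 0.211 in S280D libraries, -0.14 and -0.232 in S280A libraries, 0.129 and 0.158 in WT libraries and -0.247 and -0.0648 in YFP libraries. The part of the fibroblast and hepatocyte markers and of the mitochondrial share in the results below was not tested. Values corrected for exon length are given only for the followed genes of glycerolipid synthesis. They are given where they change a call or move a called value by over 1.5 times. Single calls of the other genes of glycerolipid metabolism further below were not examined with this correction. By the table headers, lane 1 held both YFP libraries, S280A replicate 2 and S280D replicate 1, and lane 2 held both WT libraries, S280A replicate 1 and S280D replicate 2. WT and YFP share no lane, so a lane term in their comparison rests on the S280A and S280D libraries.

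Agpat1, Agpat2 and Agpat3 carried most of the differences, with Agpat1 lower in cells with wild-type or S280D receptor than in cells with S280A receptor or YFP alone. With edgeR's quasi-likelihood test and a threshold of 0.05 on the adjusted p, 3 of the 10 genes fell in S280D relative to YFP (Agpat1, Agpat2 and Agpat6) and none rose. Over all tested genes 13.7% were called lower and 17.1% higher in that comparison. Relative to YFP, 2 fell in WT (Agpat1 and Agpat3), where 7.45% of all genes were called lower. None was called in S280A relative to YFP, where 0.0403% of all genes were called. DESeq2 also called 0 of the 10 there, and 86 of all genes. Dgat2 was the 1 gene of the 10 with an unadjusted edgeR p under 0.05 there, as had 11.6% of all genes. Compared with S280A, 3 fell in S280D (Agpat1, Agpat2 and Dgat1), where 18% of all genes were called lower. Compared with WT, 3 rose in S280A (Agpat1, Agpat3 and Dgat2), where 10.1% of all genes were called higher. In S280D relative to WT edgeR called 0 of the 10 and 0.0403% of all genes. DESeq2 also called 0 of the 10 there, and 39 of all genes. At an unadjusted edgeR p under 0.05 there were 1 of the 10, Agpat1, and 4.88% of all genes. These comparisons share libraries and are not independent of each other. With 2 libraries per group, full separation of 2 groups in either direction was common. It held for 69.7% of all tested genes between S280D and YFP, 64.3% between WT and YFP and 37.8% between S280A and YFP. The share was 74.2% between S280D and S280A, 40.5% between S280D and WT and 69.8% between S280A and WT.

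The median log2 fold change of the 10 genes was -0.1 in S280D, -0.06 in S280A and -0.23 in WT relative to YFP, against -0.02, -0.02 and -0.01 over all tested genes. It was -0.26 in S280D relative to S280A, 0.07 in S280D relative to WT and 0.31 in S280A relative to WT, against -0.01, 0 and 0.01 over all tested genes.

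**Figure D1:**
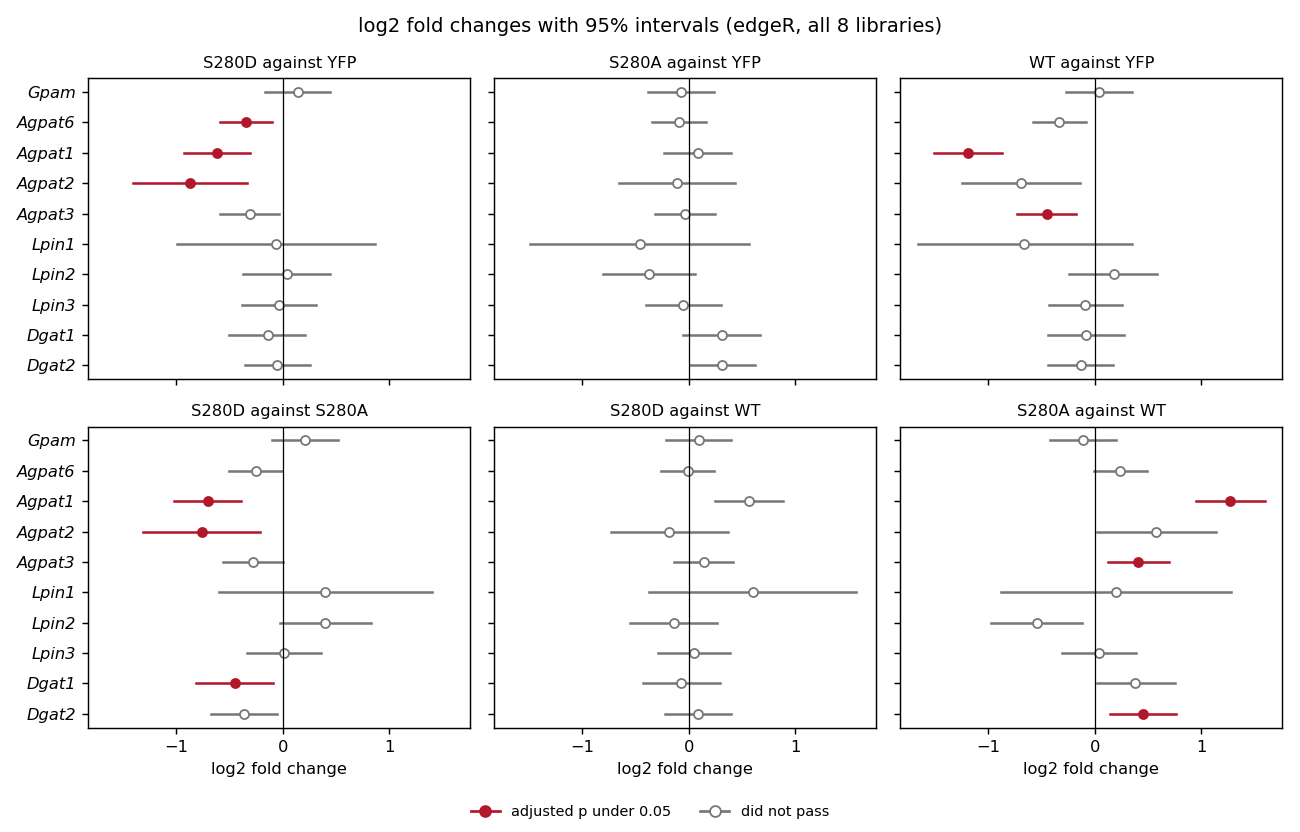
log2 fold change of each of the 10 genes (horizontal axis) in the 6 comparisons, with 95% intervals from edgeR on total exon reads of all 8 libraries. Filled red points passed an adjusted p of 0.05 and open grey points did not; Agpat1 passed in 4 comparisons, from -1.19 in WT against YFP to 1.27 in S280A against WT.

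The levels of the 10 genes were compared with each other only after division by exon length, as CPM per kb. Agpat6 was highest, at a mean of 22.7 CPM per kb over the 8 libraries, and Dgat2 followed at 18.3 CPM per kb. Lpin2 at 2.29 CPM per kb and Lpin1 at 0.331 CPM per kb were the lowest. These 4 held the same rank in every library. Between them lay Agpat1 at 11.1, Dgat1 at 10.7, Gpam at 9.25, Agpat3 at 8.92, Agpat2 at 5.72 and Lpin3 at 4.85 CPM per kb, and the library ranges of neighbours in this middle group overlapped. All these levels are of total exon reads, of which only 16.9% were unique in Agpat1, so its place is uncertain.

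**Figure D2:**
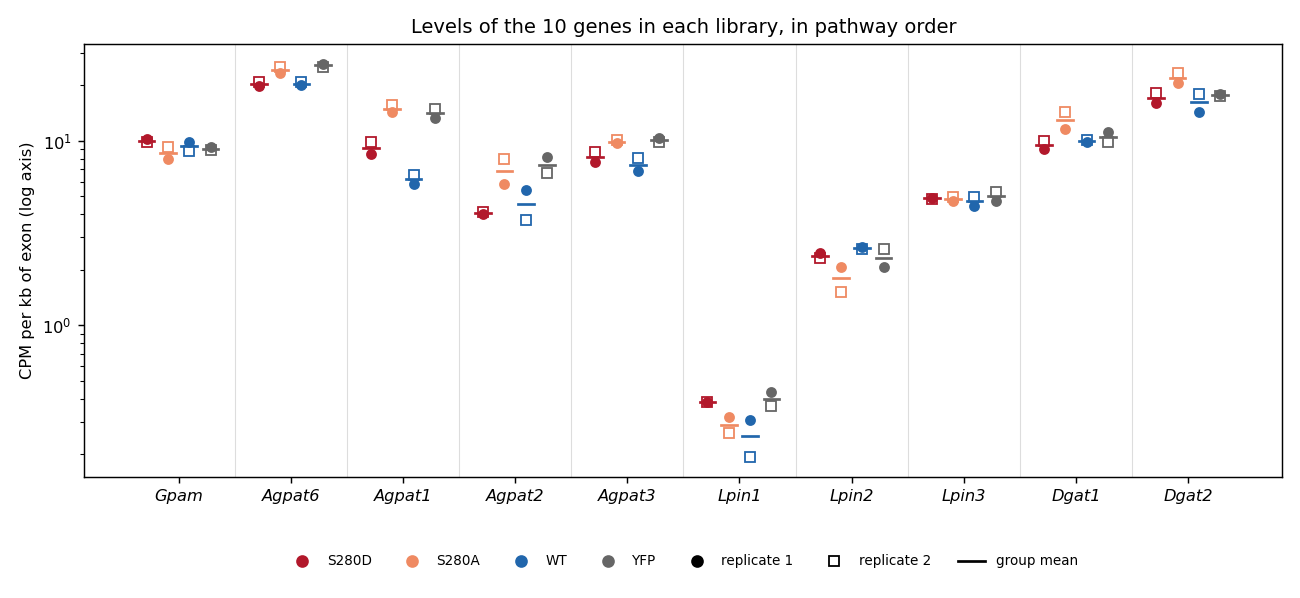
Level of each gene in each library as CPM per kb of exon on a log axis, in pathway order. Colours are constructs, filled circles replicate 1, open squares replicate 2 and lines group means; Agpat6 and Dgat2 lie highest in every library, and Lpin1 lies at 0.436 CPM per kb or below.

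Shares within a step were taken among the 10 genes alone. Other genes of the first 2 steps, such as Agpat9, Agpat4 and Agpat5, were also expressed and are not in these shares. Agpat6 made up 65.9% to 74.4% of the summed CPM per kb of Agpat6 and Gpam in the 8 libraries. Dgat2 made up 59.4% to 64.7% of the sum of Dgat1 and Dgat2. Lpin3 made up 60% to 73.5% of the sum of the 3 lipins, although lipin 1 is the main lipin of adult heart muscle in mouse. Of the sum of Agpat1, Agpat2 and Agpat3, Agpat1 held 42% to 43.7% in S280D, 46.4% to 47.9% in S280A and 32.1% to 35.8% in WT, against 41.8% to 47.3% in YFP. The WT libraries had the lowest Agpat1 shares. Only 16.9% of Agpat1 exon reads were unique, so its shares rest mostly on reads whose origin is uncertain. The same holds for its part in the summed level of the 3 genes. Shares on unique reads were not computed. The summed level of these 3 genes was 20.1 and 22.7 CPM per kb in S280D, 29.8 and 33.7 in S280A and 18.1 and 18.3 in WT, against 31.8 and 31.4 in YFP, so that the S280D and WT libraries lay below all S280A and YFP libraries. In each of these pairs of groups, 64.3% to 74.2% of all tested genes had no overlap in either direction.

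Agpat1, Agpat2 and Agpat3 add the second fatty acid at the membrane of the endoplasmic reticulum, giving phosphatidate. In Rnor_6.0, the build of the deposited table, Agpat1 lies on chromosome 20 from 4369177 to 4378269, Agpat2 on chromosome 3 from 4044541 to 4055806 and Agpat3 on chromosome 20 from 11114163 to 11144806. The 250 bases before their starts are shown because most of the calls fell in this family, taken from RefSeq in the GRCr8 assembly, whose coordinates differ from those of the table. Capitals mark matches, on either strand, to a nuclear receptor half-site (AGGTCA), a GC box (GGGCGG) or an inverted CCAAT box (ATTGG).
Agpat1, chr20:4147869-4148118, minus strand: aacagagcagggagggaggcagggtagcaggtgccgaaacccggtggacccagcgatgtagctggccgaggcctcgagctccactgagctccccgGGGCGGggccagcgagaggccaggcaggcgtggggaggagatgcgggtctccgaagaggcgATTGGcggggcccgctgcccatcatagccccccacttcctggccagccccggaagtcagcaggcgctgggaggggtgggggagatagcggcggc
Agpat2, chr3:29826158-29826407, minus strand: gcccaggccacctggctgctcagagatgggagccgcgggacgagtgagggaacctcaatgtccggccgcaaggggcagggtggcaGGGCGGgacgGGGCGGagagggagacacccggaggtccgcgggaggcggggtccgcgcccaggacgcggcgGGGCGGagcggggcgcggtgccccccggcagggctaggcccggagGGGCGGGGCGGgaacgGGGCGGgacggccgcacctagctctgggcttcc
Agpat3, chr20:10383931-10384180, plus strand: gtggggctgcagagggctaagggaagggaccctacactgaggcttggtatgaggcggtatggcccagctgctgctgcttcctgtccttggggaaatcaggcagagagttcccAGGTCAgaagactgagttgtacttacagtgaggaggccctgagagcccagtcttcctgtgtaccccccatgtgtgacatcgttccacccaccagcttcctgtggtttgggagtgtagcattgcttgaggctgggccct
Of the 10 genes, 7 were matched to the promoter sequences, and Agpat6, Dgat1 and Dgat2 were not. The direct repeat bound by PPAR and RXR, in which half-sites follow each other 1 base apart, had no exact match in the 7 windows and one in 0.0508% of 33469 rat promoters. The E-box CACGTG, found in 5.59% of promoters, had none in the 7 either. The half-site alone was found in 1 of the 7, Agpat3, at 138 bases before the start, and in 14.1% of promoters. GC boxes were found in Agpat1, with 1, and Agpat2, with 6 of which the pair at 49 and 44 bases before the start overlap, and in 30.5% of promoters. The inverted CCAAT box was found in Agpat1, Gpam, Lpin1 and Lpin3, and in 34% of promoters. The Agpat1 and Agpat2 windows were 71.2% and 78.4% G or C and that of Agpat3 58%, against a median of 51.2% over promoters. These are matches of letters in short windows and do not show binding.

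Agpat1 had 26.9 and 31.6 CPM in S280D, 45.4 and 49.8 CPM in S280A and 18.5 and 20.9 CPM in WT, against 42.3 and 47.4 CPM in YFP. Every S280D and WT library lay below every S280A and YFP library, and the WT libraries lay below the S280D libraries. Of all tested genes, 35.7% were lower without overlap in S280D and 32.3% in WT relative to YFP. In S280D relative to S280A 37.7% were lower so, and in S280A relative to WT 34.6% were higher. S280D lay above WT without overlap in 19.4%. The log2 fold change of Agpat1 relative to YFP was -1.19 ± 0.15 (SE) in WT (edgeR adjusted p = 0.0023) and -0.62 ± 0.14 in S280D (edgeR adjusted p = 0.00901). In S280A it was 0.09, with a 95% interval of -0.23 to 0.4. Agpat1 rose in S280A relative to WT by 1.27 ± 0.15 (edgeR adjusted p = 0.00333) and fell in S280D relative to S280A, with a log2 fold change of -0.7 ± 0.14 (edgeR adjusted p = 0.00444). S280D relative to WT gave 0.57 ± 0.14, which did not pass after adjustment (edgeR adjusted p = 0.434, and 0.0779 to 1 under the alternatives). Within lane 1 Agpat1 stood at 26.9 CPM in S280D, 49.8 CPM in S280A and 42.3 and 47.4 CPM in YFP, and within lane 2 at 31.6 CPM in S280D, 45.4 CPM in S280A and 18.5 and 20.9 CPM in WT. The order of constructs within each lane was that of the pooled values. Without S280D replicate 1 the 2 calls that involve S280D were lost, and without WT replicate 1 the call of S280A against WT was lost (edgeR adjusted p = 0.0653). With lane as a covariate the log2 fold change of Agpat1 in WT relative to YFP was -1.24 ± 0.23, of like size with a larger error, and missed the threshold (edgeR adjusted p = 0.0664).

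Most Agpat1 reads were not assigned uniquely. Of its exon reads 16.9% were unique over all libraries, from 13.6% (95% Wilson interval 11.1% to 16.5%) in S280A replicate 2 to 21.1% (17.2% to 25.5%) in WT replicate 1, intervals that cover counting error only. The other 9 genes had at least 99.9% unique reads, and 6.63% of all tested genes had less than 25%. Agpat1 lies inside the span that the table gives for C4a_2, a complement C4 copy, from 4302346 to 4508214 on chromosome 20. Of the 11 features with at least 100 reads within 150 kb, 7, Agpat1 included, had less than 50% unique reads, among them C4b at 34%, Pbx2 at 32.4% and Atf6b at 34.4%, while Dxo and Skiv2l had 100%. Which reads the deposited counts assign to Agpat1 from elsewhere is not known, and its total level is uncertain.

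Unique Agpat1 reads separated the same groups, with smaller fold changes in the 4 comparisons called on total reads. They stood at 5.15 and 6.93 CPM in S280D, 8.30 and 7.85 CPM in S280A and 4.49 and 4.06 CPM in WT, against 8.19 and 9.27 CPM in YFP. No S280D or WT library reached the S280A or YFP libraries, and how many genes separated so on unique reads was not counted. The log2 fold change relative to YFP was -1.03 ± 0.23 in WT (edgeR adjusted p = 0.00842). S280A relative to WT gave 0.91 ± 0.24 (edgeR adjusted p = 0.0136). The calls that involve S280D did not hold on unique reads, at -0.55 ± 0.22 relative to YFP (edgeR adjusted p = 0.0666) and -0.43 ± 0.22 relative to S280A (edgeR adjusted p = 0.134). The reads that were not unique stood at 22.5 and 25.5 CPM in S280D, 38.3 and 43 CPM in S280A and 14.6 and 17.3 CPM in WT, against 35.2 and 39.4 CPM in YFP, so both kinds of reads separated the same groups.

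**Figure D3:**
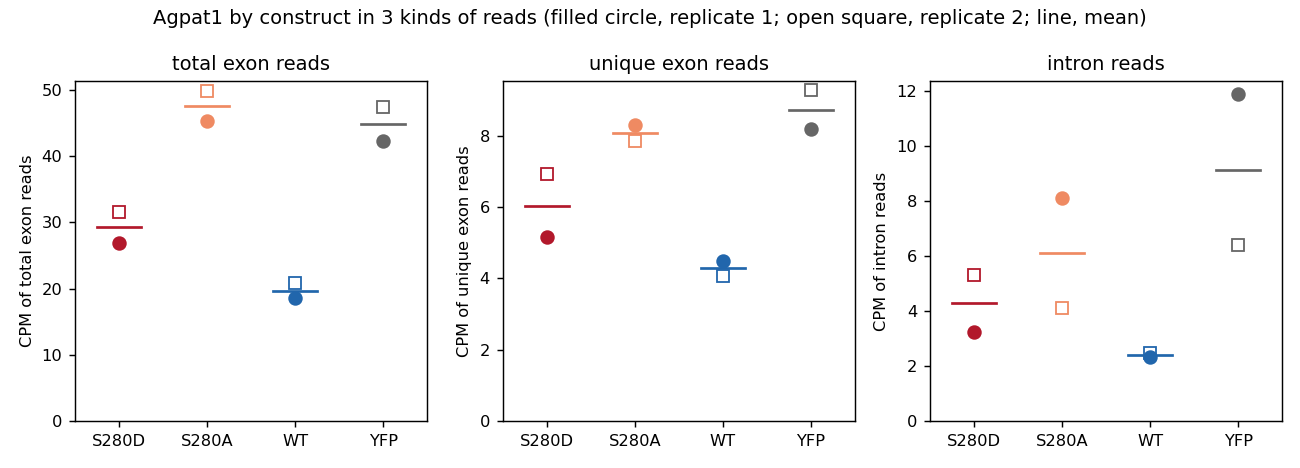
Agpat1 in each library as CPM of total exon, unique exon and intron reads (vertical axes, each from 0) by construct, with lines at the group means of 2 libraries. In total and unique exon reads the S280D and WT libraries lie below the S280A and YFP libraries; intron reads rest on 7 to 26 reads per library.

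Agpat2, whose loss in humans causes generalized lipodystrophy, had 4.42 and 4.55 CPM in S280D, 6.46 and 8.78 CPM in S280A and 6 and 4.11 CPM in WT, against 9.02 and 7.36 CPM in YFP. The S280D libraries lay below all S280A and YFP libraries, and the WT libraries below all S280A and YFP libraries, but these counts rest on 69 to 183 reads per library. In each of these pairs of groups, 64.3% to 74.2% of all tested genes had no overlap in either direction. Agpat2 fell in S280D relative to YFP by 0.87 ± 0.25 on the log2 scale (edgeR adjusted p = 0.0229) and relative to S280A by 0.76 ± 0.25 (edgeR adjusted p = 0.0334). WT relative to YFP gave -0.69 ± 0.25 and did not pass (edgeR adjusted p = 0.0731). With no filter on low counts it passed (edgeR adjusted p = 0.0444). Within lane 1 Agpat2 stood at 4.42 CPM in S280D, 8.78 CPM in S280A and 9.02 and 7.36 CPM in YFP, and within lane 2 at 4.55 CPM in S280D and 6.46 CPM in S280A. Neither call held with lane as a covariate or without either S280D library, the call against YFP also ended without YFP replicate 1, and the call against S280A without S280A replicate 2.

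Agpat3, which prefers polyunsaturated acyl chains, had 46.2 and 52.0 CPM in S280D, 58.3 and 60.6 CPM in S280A and 41.1 and 48.2 CPM in WT, against 62.3 and 59.5 CPM in YFP. Its groups fell in the same 2 sets as those of Agpat1, with a smaller gap. Between these sets, 64.3% to 74.2% of all tested genes had no overlap in either direction in each pair of groups. Agpat3 fell in WT relative to YFP by 0.45 ± 0.13 on the log2 scale (edgeR adjusted p = 0.0329) and rose in S280A relative to WT by 0.41 ± 0.13 (edgeR adjusted p = 0.0378). In S280D the log2 fold change was -0.31 ± 0.13 relative to YFP (edgeR adjusted p = 0.0827) and -0.28 ± 0.13 relative to S280A (edgeR adjusted p = 0.105). Corrected for exon length, which is 6003 bases in Agpat3, the log2 fold change was -0.72 in WT relative to YFP and 0.72 in S280A relative to WT, and S280D passed at -0.67 ± 0.16 relative to YFP (edgeR adjusted p = 0.0066) and -0.68 ± 0.16 relative to S280A (edgeR adjusted p = 0.00521). Within lane 2 Agpat3 stood at 58.3 CPM in S280A and 41.1 and 48.2 CPM in WT. The WT call against YFP ended with lane as a covariate and without any 1 of the YFP libraries, the WT libraries or S280D replicate 1, and the S280A call against WT ended with lane as a covariate, with no filter on low counts, and without any 1 of the WT, S280A or S280D libraries.

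The first acylation step showed 1 call among its 2 genes. Agpat6, the glycerol-3-phosphate acyltransferase of the endoplasmic reticulum (chromosome 16, 73615948 to 73649767), had 61.6 and 65.5 CPM in S280D, 72.7 and 78.9 CPM in S280A and 63.1 and 65.1 CPM in WT, against 82.3 and 79.1 CPM in YFP. The S280D and WT libraries lay below the S280A and YFP libraries, pairs of groups in which 64.3% to 74.2% of all tested genes had no overlap. Agpat6 fell in S280D relative to YFP by 0.34 ± 0.11 on the log2 scale (edgeR adjusted p = 0.0395), while WT relative to YFP gave -0.33 ± 0.11 (edgeR adjusted p = 0.0604). The S280D call was lost with DESeq2, with no filter on low counts, with a fit of only the S280D and YFP libraries, with lane as a covariate, and without any 1 of the YFP, WT or S280D libraries. In lane 1 the S280D library stood at 61.6 CPM and the YFP libraries at 82.3 and 79.1 CPM. Corrected for exon length, Agpat6 also passed in WT relative to YFP (-0.45 ± 0.13, edgeR adjusted p = 0.0262), in S280D relative to S280A (-0.44 ± 0.13, edgeR adjusted p = 0.0164) and in S280A relative to WT (0.39 ± 0.13, edgeR adjusted p = 0.0388).

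Gpam, the acyltransferase of the outer mitochondrial membrane (chromosome 1, 275846818 to 275906686), had 31.0 and 29.9 CPM in S280D, 24.4 and 28.3 CPM in S280A and 29.9 and 27 CPM in WT, against 28.2 and 27.2 CPM in YFP. No comparison passed. Its highest library was 1.27 times its lowest. The 95% interval of the log2 fold change relative to YFP was -0.17 to 0.44 in S280D, -0.38 to 0.24 in S280A and -0.27 to 0.35 in WT.

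None of the 3 lipins passed in the 6 comparisons on total exon reads of all 8 libraries, and Lpin2 did under some alternatives. Lipins also act in the nucleus as coactivators, and in mouse liver lipin 1 works with PPARα. Lpin1 (chromosome 6, 41799748 to 41870046) had 1.18 and 1.18 CPM in S280D, 0.983 and 0.805 CPM in S280A and 0.950 and 0.596 CPM in WT, against 1.35 and 1.12 CPM in YFP. These values rest on 10 to 49 reads per library, and no difference was called at this depth. The standard errors of its log2 fold changes were 0.42 to 0.49, and what size of difference could be detected was not tested. The 95% interval in WT relative to YFP ran from -1.66 to 0.35.

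Lpin2 (chromosome 9, 119517100 to 119591533) had 14.8 and 14.0 CPM in S280D, 12.6 and 9.18 CPM in S280A and 16.0 and 15.7 CPM in WT, against 12.5 and 15.6 CPM in YFP. S280A replicate 2 was the lowest library, and both S280A libraries lay below both WT libraries, as in 35.2% of all tested genes. S280A relative to WT gave a log2 fold change of -0.54 ± 0.19, which missed the threshold on total reads (edgeR adjusted p = 0.0598) and passed on unique reads (edgeR adjusted p = 0.0492). It also passed with no filter on low counts (edgeR adjusted p = 0.0393) and without YFP replicate 1, YFP replicate 2 or S280A replicate 1, which gave -0.79 in the last case. With a correction for exon length it was -0.24 (edgeR adjusted p = 0.295). S280D relative to S280A gave 0.4 ± 0.19 (edgeR adjusted p = 0.116), and passed without S280A replicate 1 at 0.65 ± 0.22 (edgeR adjusted p = 0.0371). Lpin3 (chromosome 3, 156886453 to 156899436) had 15.3 and 15.2 CPM in S280D, 14.7 and 15.5 CPM in S280A and 13.9 and 15.6 CPM in WT, against 14.8 and 16.5 CPM in YFP. It was the least variable of the 10, with a highest library 1.18 times the lowest, and its groups overlapped in all comparisons.

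The diacylglycerol acyltransferases had their highest group means in S280A. Dgat1 (chromosome 7, 117566367 to 117576737) had 15.9 and 17.3 CPM in S280D, 20.3 and 25.1 CPM in S280A and 17.1 and 17.6 CPM in WT, against 19.5 and 17.2 CPM in YFP. On the log2 scale, Dgat1 in S280A gave 0.31 ± 0.16 relative to YFP (edgeR adjusted p = 0.497) and 0.38 ± 0.17 relative to WT (edgeR adjusted p = 0.104). Neither passed. Dgat1 fell in S280D relative to S280A by 0.45 ± 0.16 on the log2 scale (edgeR adjusted p = 0.0464). In lane 1 it stood at 15.9 CPM in S280D and 25.1 CPM in S280A, and in lane 2 at 17.3 CPM in S280D and 20.3 CPM in S280A. The call was lost with DESeq2, with no filter on low counts, with a fit of only the S280D and S280A libraries, with lane as a covariate, and without any 1 of the WT or S280D libraries or S280A replicate 2.

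Dgat2 (chromosome 1, 164113458 to 164143818), an enzyme unrelated to Dgat1 in sequence, had 50.9 and 57.4 CPM in S280D, 65.0 and 73.9 CPM in S280A and 45.3 and 56.5 CPM in WT, against 56.4 and 55.3 CPM in YFP. Both S280A libraries lay above all others. Of all tested genes, S280A had no overlap with YFP in 37.8%, with WT in 69.8% and with S280D in 74.2%, in either direction. Dgat2 rose in S280A relative to WT by 0.45 ± 0.14 on the log2 scale (edgeR adjusted p = 0.0382). Relative to YFP, S280A gave 0.31 ± 0.14 (edgeR adjusted p = 0.421). S280D relative to S280A gave -0.36 ± 0.14 on total reads (edgeR adjusted p = 0.0595), and it passed on unique reads at -0.37 ± 0.14 (edgeR adjusted p = 0.0482). Corrected for exon length it was -0.55 ± 0.15 (edgeR adjusted p = 0.0121). Within lane 2 Dgat2 stood at 65.0 CPM in S280A and 45.3 and 56.5 CPM in WT. The S280A call against WT ended with lane as a covariate and without WT replicate 1, S280A replicate 2 or either S280D library.

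The 11 calls kept their direction under each of 17 alternatives, and none of the 11 passed the threshold in all 17. Those of Agpat1 in WT relative to YFP and in S280A relative to WT passed in 16. Without S280D replicate 1, the deepest library, 2 of the 11 remained, both of Agpat1, and with lane as a covariate 3 remained, all of Agpat1. The lane term moved the 11 log2 fold changes by at most 0.1 and raised their standard errors to 0.15 to 0.29, against 0.11 to 0.25 without it. An added threshold of 1.5-fold left 6, which were all 4 calls of Agpat1 and both of Agpat2.

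**Figure D4:**
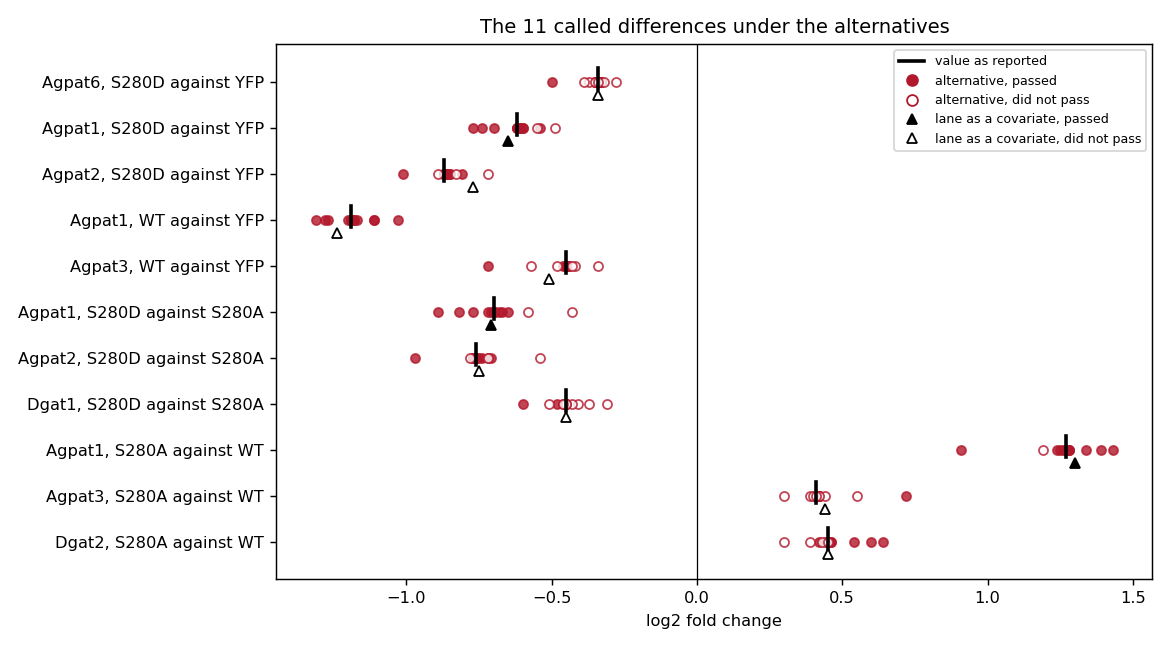
log2 fold change (horizontal axis) of the 11 called differences as reported (vertical bars) and under 16 of the 17 alternatives (circles, with triangles for lane as a covariate). The added 1.5-fold threshold is left out, since it leaves the fold change as it is. Filled symbols passed an adjusted p of 0.05 and open symbols did not; no symbol crosses 0, and each of the 4 Agpat1 rows has at most 2 open symbols.

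Intron reads, a second readout of the same loci in the same libraries, called 0 of the 10 genes in any comparison in edgeR, and DESeq2 was not run on them. Over all genes, edgeR called 5.35% on intron reads in S280D and 2.02% in WT relative to YFP, 0.0154% in S280A relative to YFP, 4.54% in S280D relative to S280A, 0.0077% in S280A relative to WT and 0% in S280D relative to WT. Agpat1 had an unadjusted p under 0.05 in edgeR in 3 of them, and no other gene of the 10 did in any. Of all genes, 17.4% had such a p in WT relative to YFP, 23.7% in S280D relative to YFP and 15.3% in S280A relative to WT. Agpat1 gave -1.89 ± 0.58 in WT relative to YFP (edgeR adjusted p = 0.113), -1.1 ± 0.51 in S280D relative to YFP (edgeR adjusted p = 0.21) and 1.37 ± 0.62 in S280A relative to WT (edgeR adjusted p = 0.314). Agpat1 introns held 7 to 26 reads per library.

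The deposited table's own tests called fewer of the 10 genes. In the authors' deposited table Agpat1 was called in the same 4 comparisons, with a signed fold of -1.52 in S280D and -2.29 in WT relative to YFP, -1.62 in S280D relative to S280A and 2.44 in S280A relative to WT. Agpat2 was called in the authors' deposited table in S280D relative to YFP (fold -1.8, adjusted p = 0.0195) and relative to S280A (fold -1.68, adjusted p = 0.0477). No other gene of the 10 was called there. Of all features, the authors' deposited table called 9.57% in S280D, 0.22% in S280A and 6.62% in WT relative to YFP, 12.6% in S280D relative to S280A, 0.155% in S280D relative to WT and 8.25% in S280A relative to WT. These shares are over all 32258 features, of which 20259 had exon reads. The edgeR shares on exon reads are over the 12407 that passed the filter on low counts, so the 2 kinds of share are not alike.

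The libraries' profile of Agpat1 was most like those of Pcsk6 (Pearson's r = 0.992), Pofut2 (0.99), Tmem119 (0.989), Il11ra1 (0.988) and Fam189b (0.983), out of 8713 features with a symbol and at least 5 CPM. These values describe log2 CPM over 8 libraries that share constructs, lanes and the trend with exon length.

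Other genes of glycerolipid metabolism moved in both directions. Of 43 tested genes in 5 lists (glycerol-3-phosphate supply, other acyltransferases, lipid phosphatases and lipin regulators, the phospholipid branch and triglyceride release), 6 rose and 6 fell in S280D relative to YFP, where 17.1% of all genes were called higher and 13.7% lower. In WT relative to YFP 6 rose and 6 fell, where 12.2% of all genes were called higher and 7.45% lower. In S280A relative to YFP edgeR called 0 of the 43, with 3 at an unadjusted p under 0.05, as had 11.6% of all genes. In S280D relative to S280A 11 rose and 8 fell, where 21.3% of all genes were called higher and 18% lower. In S280A relative to WT 6 rose and 5 fell, where 10.1% of all genes were called higher and 15.9% lower. In S280D relative to WT edgeR called 0, with 6 at an unadjusted p under 0.05, as had 4.88% of all genes. DESeq2 calls were not counted over these lists. Calls of single list genes were not examined with lane as a covariate, with the exon length offset or without 1 library. With lane as a covariate, 9 of all genes were called in WT relative to YFP, against 2437 without it. The median log2 fold change of the 43 genes lay between -0.13 and 0.07 in all 6 comparisons.

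Etnk1, the ethanolamine kinase that starts phosphatidylethanolamine synthesis, averaged 76.4 ± 12.8 CPM in S280D, 40.9 ± 2.62 CPM in S280A and 73.5 ± 5.61 CPM in WT, against 44 ± 11.7 CPM in YFP (SD, n = 2 each). On the log2 scale, with SE, it rose in S280D relative to YFP by 0.79 ± 0.18 (edgeR adjusted p = 0.00869) and relative to S280A by 0.9 ± 0.18 (edgeR adjusted p = 0.00443), opposite in direction to Agpat1. Ppap2c, a lipid phosphate phosphatase that can also dephosphorylate phosphatidate, averaged 36.7 ± 1.77 CPM in S280D, 52.8 ± 10.1 CPM in S280A and 34.3 ± 0.204 CPM in WT, against 60 ± 1.54 CPM in YFP. On the log2 scale, with SE, it fell relative to YFP in S280D by 0.71 ± 0.14 (edgeR adjusted p = 0.00521) and in WT by 0.81 ± 0.14 (edgeR adjusted p = 0.00627), in the direction of Agpat1. Mgll, the monoglyceride lipase, averaged 22.5 ± 4.2 CPM in S280D, 26.5 ± 0.832 CPM in S280A and 14.5 ± 0.425 CPM in WT, against 30.9 ± 5.75 CPM in YFP. It fell in WT relative to YFP by 1.09 ± 0.18 (SE) on the log2 scale (edgeR adjusted p = 0.00531).

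Each of 6 further list genes passed in more than 1 comparison, and the comparisons in which they ranked among the smallest adjusted p are given. Values are log2 fold changes ± SE. Cnep1r1, the regulatory subunit of a phosphatase that acts on lipins, rose in S280D relative to YFP by 0.9 ± 0.19 (edgeR adjusted p = 0.00682). Ctdnep1, from the same list of lipid phosphatases and lipin regulators, went the other way there, at -0.5 ± 0.14 (edgeR adjusted p = 0.0244). Crls1, cardiolipin synthase, rose in S280D relative to YFP by 0.81 ± 0.2 (edgeR adjusted p = 0.0118). Ept1, which transfers phosphoethanolamine to diacylglycerol, rose in WT relative to YFP by 0.62 ± 0.16 (edgeR adjusted p = 0.0214). Gk, glycerol kinase, rose in S280D relative to S280A by 0.97 ± 0.23 (edgeR adjusted p = 0.00859), and so did Tmem68, an acyltransferase of triglyceride synthesis, by 0.9 ± 0.2 (edgeR adjusted p = 0.0066). Aup1, a lipid droplet protein with an acyltransferase domain, fell in S280D relative to S280A, with a log2 fold change of -0.88 ± 0.17 (edgeR adjusted p = 0.00395), and rose in S280A relative to WT by 0.69 ± 0.17 (edgeR adjusted p = 0.0178).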

How the data were processed

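Strand-specific libraries were made from poly(A) RNA with 15 PCR cycles, per the labels' protocols. The deposited table gives raw counts per gene for each library (total exon, unique exon and intron reads, not normalized), per the file headers, on Rnor_6.0, per the submitters' processing notes. It also holds the authors' tests as adjusted p-values and as a signed fold, a score that is negative where the group named second in the header is lower, per the file headers. The aligner, annotation and strand setting are those of the authors and not given in the sources used here. Replicate 2 of WT is titled so and numbered 3 in its description.

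Total exon reads of all features were tested two-sided with edgeR 4.0.16 in R 4.3.3: filterByExpr, TMM, a quasi-likelihood fit to all 8 libraries with 1 coefficient per group (4 residual degrees of freedom), and Benjamini-Hochberg adjustment over the 12407 genes tested at 0.05. Standard errors came from the fold change and the F statistic. Unique exon reads (11832 genes) and intron reads (12988 genes) were tested alike. The script was tested on simulated data. Alternatives: DESeq2 1.42.0, RLE size factors, no filter, unique reads, lane as a covariate, a replicate block, a fit of only the 4 libraries in question, an offset for exon length (loess), an added 1.5-fold threshold, and leaving out each library, whose group then has 1 library that is assumed to vary like the other groups. No pair of libraries of 1 group agreed within sampling noise.

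The members and lists were chosen with earlier results of these data known. All 10 members are named, with up to 4 list genes per comparison by smallest adjusted p and the 5 features most like the member with the smallest adjusted p. Ctdnep1 is named in addition, beside Cnep1r1. Proteins were not used here.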

Additional observations from a re-analysis of the deposited data

How the results depend on the processing

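All 11 calls kept their direction under each of 17 alternatives. With RLE size factors or the offset for exon length 11 remained past the threshold, with DESeq2, with only the 4 libraries compared, and on unique reads 9, with no filter on low counts 8, and with the added 1.5-fold threshold 6. With lane as a covariate the number of the 10 genes called was 0 in WT against YFP and 1 each in S280D against YFP, S280A against WT and S280D against S280A. The 1.5-fold threshold left 1 in WT against YFP and 1 in S280A against WT. The offset for exon length gave 6 of the 10 in S280D against S280A, where it called 5331 of all genes. Leaving out 1 library gave 1 to 2 in WT against YFP, 0 to 3 in S280D against YFP, 0 to 4 in S280A against WT and 0 to 4 in S280D against S280A. In S280A against YFP and S280D against WT the number stayed at 0 in all alternatives.

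Deviations of same-numbered libraries had r of -0.173 to -0.0916 for the 3 pairs of groups with YFP and 0.118 to 0.205 for the 3 pairs without it. Not every pair was above 0.1 and the labels name no shared batch, so the numbers were not taken to pair the libraries. With the replicate number as a block 9 of the 11 calls remained, without Agpat6 in S280D against YFP and Dgat1 in S280D against S280A.

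Over all genes, the counts of calls depended on the setting. With lane as a covariate they were 9 against 2437 in WT against YFP, 1654 against 3815 in S280D against YFP, 993 against 3226 in S280A against WT, 2 against 5 in S280A against YFP and 1 against 5 in S280D against WT. In S280A against YFP they were 278 without a filter, 86 with DESeq2, 38 with only the 4 libraries and 8 with the length offset, and in S280D against WT they were 129 without a filter, 39 with DESeq2, 33 with only the 4 libraries and 3 with the replicate block. The 1.5-fold threshold left 2495 in S280D against YFP, 2121 in S280A against WT and 3176 in S280D against S280A. Without 1 library they ranged over 163 to 2917 (WT against YFP), 2 to 131 (S280A against YFP), 917 to 4152 (S280D against YFP), 6 to 3859 (S280A against WT), 0 to 13 (S280D against WT) and 1254 to 5223 (S280D against S280A). The length offset gave 1401 higher and 1598 lower calls in WT against YFP (1513 and 924 without it), 1784 and 2579 in S280D against YFP (2116 and 1699), 2049 and 1659 in S280A against WT (1250 and 1976), and 2169 and 3162 in S280D against S280A (2641 and 2232).

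Of 1020 single values, 30 changed sign, all of them uncalled and at most 0.32 in size. With the length offset these were Gpam (-0.08) and Lpin2 (-0.08) in WT against YFP, Agpat3 (0.01) in S280A against YFP, Gpam (-0.01) and Lpin2 (-0.32) in S280D against YFP, Gpam (0.04) in S280A against WT and Lpin3 (-0.17) in S280D against S280A. With lane they were Dgat1 (0.01) in WT against YFP and Lpin2 (-0.04) in S280D against YFP, and on unique reads Agpat1 (-0.11) in S280A against YFP. Leaving out each library gave ranges that cross 0 or reach it for Gpam (-0.04 to 0.11), Dgat1 (-0.17 to 0.02) and Dgat2 (-0.31 to 0.02) in WT against YFP, and for Gpam (-0.16 to 0.03), Agpat2 (-0.32 to 0.1) and Lpin3 (-0.13 to 0.03) in S280A against YFP. In S280D against YFP they were Lpin1 (-0.19 to 0.07), Lpin2 (-0.11 to 0.2), Lpin3 (-0.11 to 0.05) and Dgat2 (-0.14 to 0.06), and in S280A against WT Lpin1 (-0.06 to 0.58) and Lpin3 (-0.04 to 0.14). In S280D against WT they were Agpat6 (-0.06 to 0.03), Agpat2 (-0.41 to 0.13), Lpin3 (-0.03 to 0.14) and Dgat2 (-0.06 to 0.27), and in S280D against S280A Lpin3 (-0.02 to 0.03). The cause was not tested. Depth limits Lpin1, with 10 to 49 reads per library, and the intron reads.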
